A study of Sus scrofa with 9 samples.

Results

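CD antigens are molecules of the cell surface, numbered in the order in which monoclonal antibodies defined them, and many of them mark leukocytes. Here their genes were followed in pig myocardium. RefSeq accessions in the deposited table were matched to pig gene symbols, and a gene was kept where its symbol was CD, digits and at most 1 letter. Of 42 such symbols, CD14, CD36, CD40 and CD163 were left out, which gave 38 genes of the 3890 genes with a symbol in the table. Where a gene had several positions, the one with the longest annotated span stood for it. The 38 genes were sorted by where each is best known to act into 10 myeloid antigens (macrophages, monocytes and dendritic cells), 15 lymphoid antigens (T, NK, B and plasma cells) and 13 broadly expressed antigens, which are found on most leukocyte types or on other cells too. A mean of at least 0.5 RPKM over all libraries was reached by 16 of the 38 genes (4 myeloid, 2 lymphoid and 10 broadly expressed), and 22 lay below it, of which CD1E, CD207, CD70 and CD81 had no read in any library.

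The samples came from 3 female farm pigs in which an embolization coil had occluded the distal left anterior descending coronary artery. Myocardium was taken 24 hours later from 3 places in each heart, labelled healthy, border zone and ischemic. The 3 groups of 3 libraries thus share their animals, and the replicate number names the pig. All 3 groups therefore come from infarcted hearts, and no sample came from an animal without a coil. The assay was GRO-seq, in which nuclei are allowed to extend RNA they had already begun in the presence of a labelled nucleotide. Only RNA extended in that reaction is sequenced. Nuclei were prepared after the tissue had been minced and treated with collagenase, per the labels. Values are RPKM, reads per kilobase of the annotated span (introns included) scaled to the total of the library. Levels of different genes can be compared only roughly, since a listed position can be short or hold part of a gene.

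A leukocyte population is usually read from several of these molecules at once. CD80 and CD86 on antigen-presenting cells bind CD28 and CTLA4 on T cells, CD3 chains with CD247 carry the signal of the T cell receptor, and CD79A with CD79B carry that of the B cell receptor. CD46, CD55 and CD59 shield a cell from complement, CD47 restrains phagocytes, and the tetraspanins CD9, CD81, CD82 and CD151 organise integrins in the membrane. In an infarct neutrophils arrive first, followed by monocytes that become macrophages, whereas lymphocytes are fewer.

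Library totals were 2730083 to 6531658 reads in healthy, 2187977 to 7005976 reads in border zone and 883656 to 2134087 reads in ischemic myocardium. Among the markers of other cells, the 8 cardiomyocyte genes in the table, sarcomere and calcium genes such as ACTN2 and TNNT2, summed to 320 to 541 RPKM in healthy, 149 to 255 RPKM in border zone and 60.1 to 203 RPKM in ischemic libraries, so heart muscle transcription was present in every sample. The 14 macrophage and monocyte genes summed to 5.50 to 9.28 RPKM, 16.5 to 28.1 RPKM and 23.6 to 38.0 RPKM in the same order, with FCGR3A at 0 in all 9 libraries. The 6 neutrophil genes summed to 0.174 to 0.517 RPKM, at least 5.89 RPKM and 14.4 to 32.3 RPKM, and MMP9, S100A8, S100A9 and S100A12 were at 0 in the healthy libraries. The 8 T and NK cell genes summed to 1.19 to 2.26 RPKM, 3.80 to 7.72 RPKM and 4.97 to 11.2 RPKM. Of these, GZMA was at 0 outside healthy myocardium. The list behind them includes PTPRC, the gene of the pan-leukocyte antigen CD45, so the list is not confined to T and NK cells. The 2 B cell genes in the table summed to 0.0264 to 0.101 RPKM, 0.138 to 0.296 RPKM and 0.0679 to 0.706 RPKM, and 0 of them reached the mean of 0.5 RPKM. The 7 fibroblast and mural cell genes summed to 9.39 to 12.9 RPKM in healthy and 13.1 to 17.7 RPKM in ischemic libraries, and the 4 erythroid and platelet genes to 3.33 to 14.8 RPKM and 21.3 to 67.4 RPKM. In limma, ischemic against healthy, 6 of 8 cardiomyocyte genes fell, 7 of 10 macrophage genes tested rose, as did 3 of 5 neutrophil genes and 2 of 3 T and NK cell genes. Of the others, 2 of 4 endothelial genes rose and 1 fell, 2 of 5 fibroblast and mural cell genes rose, and 1 of 2 erythroid and platelet genes rose. Against healthy myocardium, 4 macrophage, 2 neutrophil and 2 T and NK cell genes rose in the border zone, and 0 genes of the other marker lists changed. Of all positions tested, 18.5% were higher and 9.1% lower in ischemic, and 5.79% higher and 0.21% lower in border zone myocardium. In bulk tissue, fewer cells of a type and less RNA per cell cannot be told apart, and the part these shifts play in the results below was not tested.

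Setting ischemic beside healthy myocardium asks which surface antigens differed where the blood supply had been cut. CD86, CD80 and CD1D of the myeloid antigens and CD69, CD48 and CD46 of the broadly expressed ones were higher in ischemic myocardium, 2.12-fold to 7.55-fold, and neither of the lymphoid antigens tested passed the threshold. Fold changes are on the scale of log2(RPKM + 0.1), which understates the change of weak genes, and p-values come from limma over all 2384 positions that reached the mean of 0.5 RPKM, with Benjamini-Hochberg adjustment and a threshold of 0.05. By this rule 6 of the 16 genes were higher and 0 were lower, against 18.5% of all positions tested that were higher and 9.1% that were lower. Unadjusted, 7 of the 16 had p under 0.05 in limma, and all of those rose. Over all positions tested, 965 of 2384 had an unadjusted p under 0.05, in either direction. The median log2 fold change was 0.97 over the 16 genes and 0.21 over all positions tested. By class, 3 of 4 myeloid genes rose (median 2.13), 0 of 2 lymphoid genes (median 0.83) and 3 of 10 broadly expressed genes (median 0.57). All 3 ischemic libraries lay above all 3 healthy libraries for 7 of the 16 genes, and that pattern held for 28.4% of all positions tested. The reverse held for 0 of the 16, and for 14.9% of positions. A gene that is weak in healthy tissue could reach the mean of 0.5 RPKM only if another group was high, so these counts describe the genes that passed the filter and not all 38. Without the filter, 7 of the 34 genes with a read were higher, CD4 in addition to the 6, and 0 were lower, against 11.2% and 5.78% of the positions tested in that way.

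The comparison of border zone with healthy myocardium asks whether the tissue beside the infarct differed too. CD86, CD80 and CD48 were higher in the border zone, 3.17-fold to 4.70-fold, and no CD antigen gene was lower. In limma, 3 of 16 genes were higher and 0 were lower, against 5.79% and 0.21% of all positions tested. The median log2 fold change was 0.86 over the 16 genes and 0.22 over all positions. Myeloid genes rose in 2 of 4 cases (median 1.95), lymphoid genes in 0 of 2 (median 1.05) and broadly expressed genes in 1 of 10 (median 0.50). The border zone libraries all lay above the healthy libraries for 10 of 16 genes and below them for 0, against 25.7% and 6.71% of all positions. As in ischemic myocardium, genes weak in healthy tissue passed the filter only where another group was high, so these counts describe filtered genes only. Without the filter on low values, 1 of 34 genes was higher, CD86, and 0 were lower, against 2.41% and 0.0519% of positions. The comparisons with healthy myocardium share the 3 healthy libraries, so their values below are given side by side only.

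**Figure D1:**
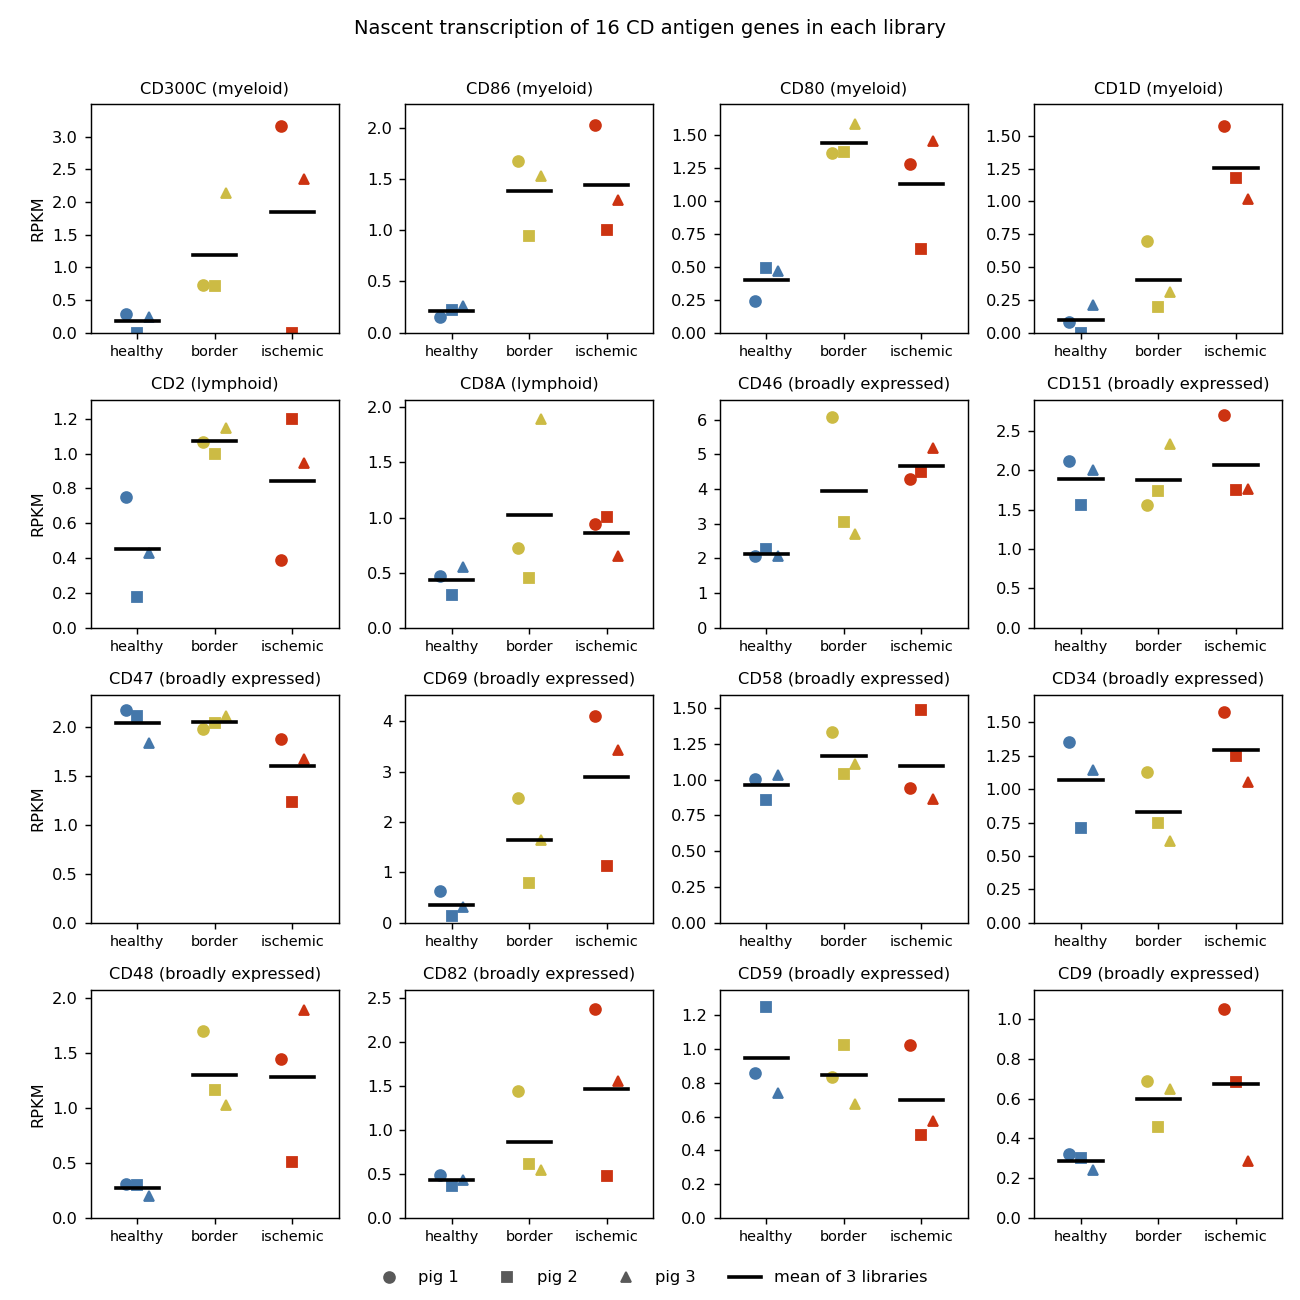
RPKM of the 16 CD antigen genes with a mean of at least 0.5 RPKM, in each of the 9 libraries (points, with 1 shape per pig) and as the mean of 3 libraries (lines), each panel on its own axis from 0. CD86, CD80, CD48, CD69 and CD46 had all border zone and all ischemic libraries above all healthy libraries, while CD47, CD151, CD34 and CD59 did not.

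CD86 had the lowest adjusted p of the 16 genes. It is the costimulatory ligand of antigen-presenting cells (NM_214222, chromosome 13 from 148057916 to 148091184, susScr3, minus strand). Its level was 0.154, 0.219 and 0.258 RPKM in healthy replicates 1 to 3, from 14, 25 and 56 reads. In the border zone it was 1.68, 0.944 and 1.52 RPKM, and in ischemic myocardium 2.03, 1.00 and 1.29 RPKM. The lowest border zone or ischemic library stood well above the highest healthy one, so neither group overlapped healthy myocardium. The log2 fold change was 2.27 ± 0.33 (SE, adjusted p = 0.00265 in limma) for ischemic and 2.23 ± 0.33 (adjusted p = 0.00801) for border zone against healthy myocardium. Without border zone replicate 1 or 3 the latter had adjusted p = 0.0509 and 0.0519 with log2 fold changes of 2.08 and 2.15.

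CD80 is the other CD28 and CTLA4 ligand, and lies 1.94 Mb from CD86 on the same chromosome (NM_214087, 150031804 to 150044238). Healthy levels were 0.236, 0.493 and 0.468 RPKM, border zone levels 1.36, 1.37 and 1.58 RPKM, and ischemic levels 1.28, 0.634 and 1.46 RPKM. In RPKM of the listed positions, CD80 was thus already higher in healthy tissue than CD86 in each pig. CD80 was highest in the border zone, where the 3 libraries were close together. On the log2 scale CD80 differed by 1.66 ± 0.35 (adjusted p = 0.0347 in limma) in the border zone and 1.27 ± 0.35 (adjusted p = 0.0292) in ischemic myocardium. The ischemic call was lost without healthy replicate 1, 2 or 3 and without ischemic replicate 1 or 3, with adjusted p of 0.0528 to 0.0846. The border zone call was lost without any one of the healthy or border zone libraries, with adjusted p of 0.0652 to 0.141.

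CD1D, which presents lipids to natural killer T cells (NM_001102680, chromosome 4 from 100437382 to 100441835), rested on few reads. It was at 0.0823, 0 and 0.206 RPKM in healthy myocardium, from 1, 0 and 6 reads. In the border zone it was at 0.696, 0.192 and 0.308 RPKM, and in ischemic myocardium at 1.58, 1.18 and 1.02 RPKM, from 15, 6 and 4 reads. Every ischemic library lay above every healthy and every border zone library, whereas border zone and healthy libraries overlapped. The log2 fold change was 2.92 ± 0.60 (adjusted p = 0.0111 in limma) against healthy myocardium, or 7.55-fold. Summed over the libraries of a group, the reads scaled to the library totals were 10.9 times those of healthy myocardium, with an exact 95% counting interval of 4.58 to 29.8. Such intervals, here and below, treat reads as independent and leave out the spread between pigs. In the border zone the log2 fold change was 1.36 (adjusted p = 0.239). Its neighbour CD1E, which lies 75.9 kb away, had no read in any library.

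CD300C, an activating receptor of myeloid cells (NM_001244303, chromosome 12 from 6621092 to 6624938), had the highest ischemic level of the myeloid antigens, but in 2 libraries only. It was at 0.286, 0 and 0.239 RPKM in healthy myocardium, at 0.732, 0.705 and 2.14 RPKM in the border zone and at 3.17, 0 and 2.35 RPKM in ischemic myocardium. Ischemic replicate 2 had no read in this gene, where 3 reads would have given 0.684 RPKM, while replicates 1 and 3 had 26 and 8. The log2 fold change against healthy myocardium was 1.98 ± 1.28 (adjusted p = 0.285 in limma), and without ischemic replicate 2 it was 3.59 (adjusted p = 0.00903). In the border zone it was 2.28 ± 1.28 (adjusted p = 0.352), with all 3 libraries above the healthy ones.

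Of the 6 weaker myeloid antigens, CD180, a Toll-like receptor homologue best known from B cells and macrophages, held 7, 69 and 15 reads in healthy, border zone and ischemic myocardium. Its border zone libraries were at 0.571, 0.196 and 0.327 RPKM, all above the highest healthy value of 0.0655 RPKM, and without the filter the log2 fold change was 1.74 (adjusted p = 0.22 in limma). The pooled border zone libraries held 9.81 times the reads of the healthy ones, each scaled to its total (exact 95% counting interval 4.52 to 25.3). CD302, a C-type lectin receptor, held 54, 73 and 35 reads, with means of 0.151, 0.182 and 0.238 RPKM. It was higher in the ischemic than in the healthy sample of 3 of 3 pigs, and the pooled reads scaled to the totals were 1.98 times those of healthy myocardium (exact 95% counting interval 1.25 to 3.08), but the libraries of the groups overlapped and the log2 fold change of 0.39 did not pass without the filter (adjusted p = 0.513 in limma). CD209, a lectin of dendritic cells and macrophages, held 2, 3 and 0 reads, and CD5L, secreted by tissue macrophages, held 1 read in all, in the border zone. CD207, the langerin of Langerhans cells, and CD1E had none, and CD207 is placed on an unassembled scaffold of the build.

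**Figure D2:**
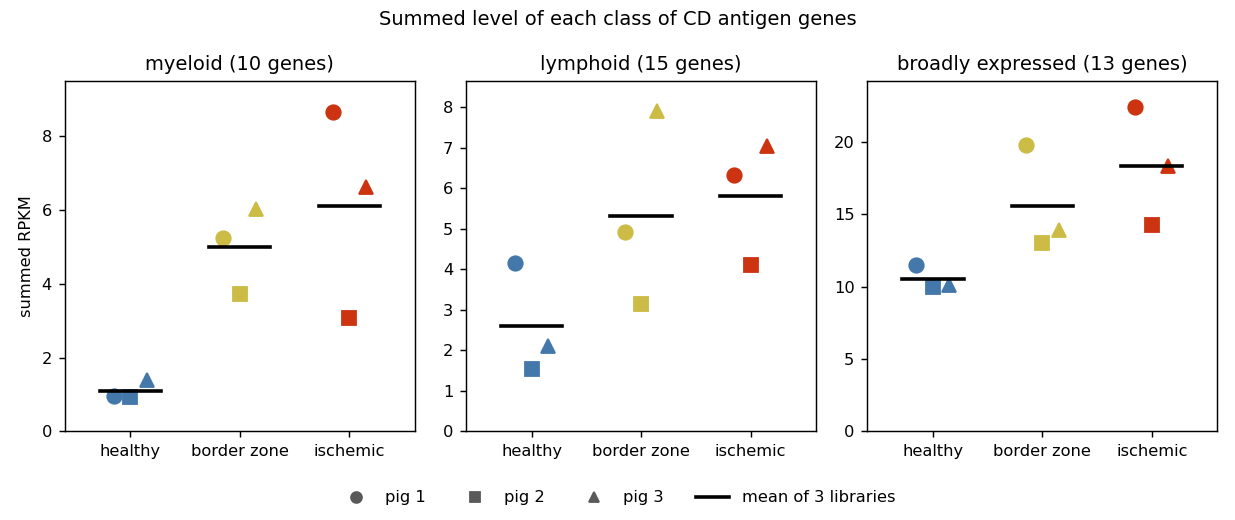
Summed RPKM of the 10 myeloid, 15 lymphoid and 13 broadly expressed antigens in each of the 9 libraries (points, with 1 shape per pig) and as the mean of 3 libraries (lines), with axes from 0. Myeloid sums were 0.929 to 1.39 RPKM in healthy and at least 3.07 RPKM in every border zone and ischemic library, whereas lymphoid sums overlapped between the groups.

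Summed over all members of a class, silent ones included, the myeloid antigens reached 0.965, 0.929 and 1.39 RPKM in healthy myocardium. They reached 5.25, 3.72 and 6.03 RPKM in the border zone and 8.66, 3.07 and 6.63 RPKM in ischemic myocardium. The lymphoid antigens summed to 4.14, 1.55 and 2.11 RPKM, then 4.92, 3.14 and 7.91 RPKM, then 6.32, 4.09 and 7.03 RPKM in the same order. Healthy replicate 1, at 4.14 RPKM, lay above border zone replicate 2 and ischemic replicate 2, so the lymphoid sums of the groups overlapped, while the myeloid sums of healthy libraries lay below all others. Within each of the 3 pigs, however, the lymphoid sum was higher in the border zone and in the ischemic sample than in the healthy one, as was the myeloid sum. The broadly expressed antigens summed to 11.5, 9.99 and 10.1 RPKM in healthy, 19.8, 13.0 and 13.9 RPKM in border zone and 22.4, 14.2 and 18.3 RPKM in ischemic libraries, and again no healthy library reached the other groups. These sums are dominated by a few genes each and are given as a description.

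Among the lymphoid antigens only CD2 and CD8A reached a mean of 0.5 RPKM. CD2, an adhesion receptor of T and NK cells (NM_213776, chromosome 4 from 113928523 to 113941699), was at 0.751, 0.177 and 0.430 RPKM in healthy, 1.07, 0.997 and 1.14 RPKM in border zone and 0.391, 1.20 and 0.945 RPKM in ischemic libraries. The border zone libraries lay close together above all healthy ones, while the ischemic libraries overlapped both groups. CD2 changed by 1.22 ± 0.48 on the log2 scale (adjusted p = 0.191 in limma) in the border zone and by 0.80 ± 0.48 (adjusted p = 0.246) in ischemic myocardium. CD8A, the coreceptor of cytotoxic T cells (NM_001001907, chromosome 3 from 60852737 to 60859738), was at 0.471, 0.292 and 0.547 RPKM in healthy, 0.724, 0.449 and 1.89 RPKM in border zone and 0.937, 1.00 and 0.647 RPKM in ischemic libraries. The ischemic libraries lay above the healthy ones, but on 14, 8 and 4 reads, and the log2 fold change of 0.85 ± 0.47 did not pass (adjusted p = 0.21), nor did that of 0.88 in the border zone (adjusted p = 0.325). With reads thinned to the smallest library, in 1 draw, CD8A did pass in ischemic against healthy myocardium, at 2.47 (adjusted p = 0.0385). In 3 of 3 pigs CD8A was higher in both the border zone and the ischemic sample than in the healthy one.

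The 13 weaker lymphoid antigens were below 0.5 RPKM on average. CD4, the coreceptor of helper T cells, which monocytes of some species also carry, alone among the 18 weak genes with reads passed the threshold without the filter. It was at 0.0835, 0.0776 and 0.0930 RPKM in healthy, 0.193, 0.103 and 0.330 RPKM in border zone and 0.427, 0.333 and 0.258 RPKM in ischemic libraries. Every border zone and ischemic library stood above the healthy ones, and the ischemic log2 fold change was 1.23 ± 0.33 (adjusted p = 0.0425 in limma). The signalling chains of the T cell receptor were thinly covered. CD3E, CD3D and CD3G, which lie next to each other on chromosome 9, held 44, 13 and 4 reads in healthy myocardium, 60, 12 and 30 reads in the border zone and 40, 6 and 7 reads in ischemic myocardium. None of the 3 had a read in ischemic replicate 2. CD3G was at 0.0304 to 0.0382 RPKM in healthy and 0.0595 to 0.572 RPKM in border zone libraries, without overlap, but the log2 fold change of 1.51 did not pass (adjusted p = 0.32). CD247, the zeta chain, held 169, 200 and 107 reads and was at 0.396, 0.0292 and 0.352 RPKM in ischemic replicates 1 to 3, where replicate 2 held 3 reads. CD5, which dampens antigen receptor signals, was high in 1 healthy library (0.663 RPKM) and 1 ischemic library (1.54 RPKM) and otherwise at most 0.408 RPKM. CD96, a T and NK cell receptor, held 6, 40 and 20 reads over a span of 91368 bp.

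Among the B and plasma cell antigens, CD70, a TNF family ligand of activated lymphocytes, had no read. CD79B held 0 reads in healthy myocardium, 16 in the border zone, 13 of them in replicate 3, and 4 in ischemic replicate 1. Since the other 2 ischemic libraries and border zone replicate 1 also held no read of CD79B, the groups overlapped. CD79A held 5, 13 and 5 reads. CD72, an inhibitory coreceptor, held 12 reads in healthy tissue, 1 at the border and 11 in ischemic tissue, with a pooled ratio of border zone to healthy of 0.083 (exact 95% counting interval 0.00194 to 0.561) and a change of -0.98 on the log2 scale (adjusted p = 0.563 in limma without the filter). CD38, an ectoenzyme that consumes NAD and marks plasma cells and activated leukocytes, was the best covered of the 13, with 153, 254 and 125 reads. Its border zone libraries, at 0.435, 0.360 and 0.467 RPKM, all lay above the healthy ones at 0.264, 0.0995 and 0.307 RPKM, and its ischemic log2 fold change was 0.93 (adjusted p = 0.18). Counting intervals here cover counting error only.

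**Figure D3:**
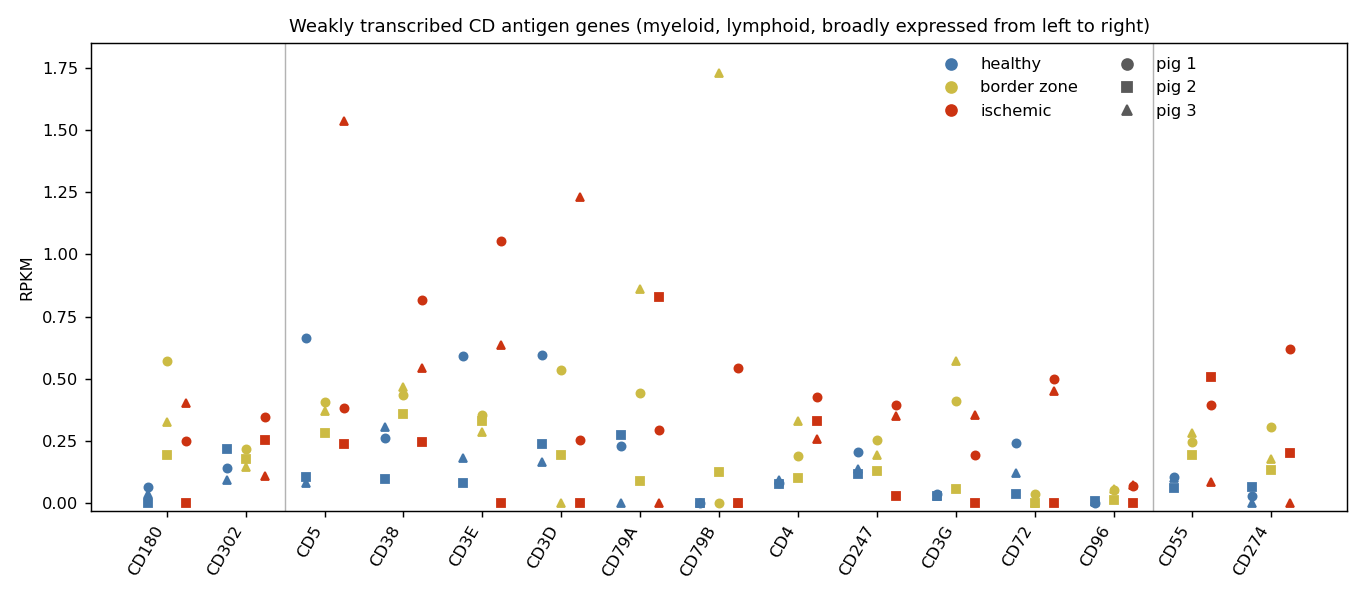
RPKM in each of the 9 libraries of the 15 CD antigen genes with a mean below 0.5 RPKM and at least 10 reads in all, with colour for the tissue group and shape for the pig, and with myeloid, lymphoid and broadly expressed genes separated by grey lines. Most points lie below 0.5 RPKM, and the highest is CD79B in border zone replicate 3, at 1.73 RPKM.

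CD69 and CD48 are found on most leukocyte types. CD69, an early activation antigen that holds cells in tissue by opposing the receptor S1PR1 (NM_214091, chromosome 5 from 64909979 to 64916924), was at 0.633, 0.126 and 0.309 RPKM in healthy myocardium, from 12, 3 and 14 reads. It was at 2.47, 0.781 and 1.65 RPKM in the border zone and at 4.12, 1.14 and 3.42 RPKM in ischemic myocardium. Pig 2 had the lowest level in each of the 3 groups, and every border zone and ischemic library exceeded every healthy one. CD69 differed from healthy myocardium by a log2 fold change of 2.69 ± 0.62 (adjusted p = 0.0161 in limma) in ischemic and 1.96 ± 0.62 (adjusted p = 0.119) in border zone samples. With the pig as a block, the paired fit gave adjusted p = 0.00559 for CD69 in the border zone, so this call depended on the pairing. The ischemic call was lost without healthy replicate 2 (adjusted p = 0.0559) or ischemic replicate 1 (0.0532).

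CD48, a small adhesion molecule that binds CD244 and CD2 (NM_001243714, chromosome 4 from 97721052 to 97736602), was at 0.306, 0.300 and 0.197 RPKM in healthy, 1.70, 1.17 and 1.03 RPKM in border zone and 1.45, 0.507 and 1.89 RPKM in ischemic libraries. Neither group overlapped healthy myocardium, although ischemic replicate 2 was the nearest to it, on 9 reads. CD48 differed from healthy myocardium by 1.91 ± 0.44 (adjusted p = 0.0435 in limma) in the border zone and 1.76 ± 0.44 (adjusted p = 0.0219) in ischemic myocardium. Without healthy replicate 2 or 3 or ischemic replicate 1 or 3 the ischemic adjusted p was 0.0552 to 0.069, and without any one of the healthy or border zone libraries or ischemic replicate 1 the border zone adjusted p was 0.0592 to 0.178.

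Of the 3 complement regulators, CD46, a cofactor for the cleavage of C3b and C4b (NM_213888, chromosome 9 from 148564569 to 148568281), rose in ischemic myocardium. It was at 2.07, 2.28 and 2.06 RPKM in healthy, 6.07, 3.04 and 2.71 RPKM in border zone and 4.29, 4.49 and 5.18 RPKM in ischemic libraries. The spread among healthy libraries was narrow and no border zone or ischemic library reached down to it. The log2 fold change was 1.08 ± 0.30 (adjusted p = 0.0315 in limma) in ischemic myocardium and 0.76 ± 0.30 (adjusted p = 0.196) in the border zone. The ischemic call was lost without any one of the healthy or ischemic libraries (adjusted p of 0.0528 to 0.0834). The position spans 3712 bp with 299 bp of exon, so it may hold only part of the gene. CD55, which speeds the decay of the C3 convertases, was weak, with means of 0.0904, 0.243 and 0.330 RPKM. Its border zone libraries all lay above its healthy ones, while ischemic replicate 3, at 0.0857 RPKM, lay among them, and the log2 fold change without the filter was 1.02 (adjusted p = 0.17). CD59, which blocks assembly of the membrane attack complex, was at 0.859, 1.25 and 0.742 RPKM in healthy, 0.833, 1.03 and 0.676 RPKM in border zone and 1.03, 0.491 and 0.577 RPKM in ischemic libraries, which overlapped (ischemic log2 fold change -0.42, adjusted p = 0.361).

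Among the tetraspanins none passed the threshold in limma on log2 RPKM, while with limma-voom on the reads CD82 (1.64, adjusted p = 0.0262) and CD9 (1.31, adjusted p = 0.0303) were higher in ischemic than in healthy myocardium. CD82, known as a suppressor of metastasis (NM_001145218, chromosome 2 from 19344068 to 19376867), was at 0.491, 0.365 and 0.429 RPKM in healthy, 1.44, 0.618 and 0.543 RPKM in border zone and 2.37, 0.481 and 1.55 RPKM in ischemic libraries. Replicates 1 and 3 of ischemic myocardium were high and replicate 2 lay within the healthy range. The ischemic log2 fold change was 1.34 ± 0.55 (adjusted p = 0.102 in limma), and it was 1.94 without ischemic replicate 2 (adjusted p = 0.0136). In the border zone it was 0.76 (adjusted p = 0.481), with no overlap with healthy libraries. A second listed position of CD82 had log2 fold changes of 1.13 in ischemic and 0.92 in border zone myocardium (adjusted p = 0.232 and 0.473 in limma). That position was higher in the ischemic than in the healthy sample of 2 of 3 pigs. CD9, which takes part in cell fusion and adhesion, was at 0.324, 0.302 and 0.240 RPKM in healthy, 0.690, 0.458 and 0.646 RPKM in border zone and 1.05, 0.686 and 0.286 RPKM in ischemic libraries. Here ischemic replicate 3, with 10 reads, was the low one, and without it the log2 fold change was 1.30 (adjusted p = 0.043), against 0.86 (adjusted p = 0.188) with all libraries. The border zone libraries of CD9 lay above all healthy ones, at a log2 fold change of 0.84 (adjusted p = 0.331). CD151, a partner of laminin-binding integrins, had group means of 1.89, 1.88 and 2.07 RPKM and an ischemic log2 fold change of 0.11 (95% interval -0.47 to 0.68), which turned to -0.11 when libraries were scaled to the same median. CD81 lies on unassembled scaffolds and had no read.

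CD47, which binds SIRPA on phagocytes as well as thrombospondin, carried the most reads of all the CD antigen genes, 2633 in the 9 libraries (NM_213982, chromosome 13 from 160472686 to 160518107). It was at 2.17, 2.11 and 1.84 RPKM in healthy, 1.98, 2.04 and 2.11 RPKM in border zone and 1.88, 1.24 and 1.67 RPKM in ischemic libraries. All ischemic libraries lay below all border zone libraries, and in each pig the ischemic sample was the lowest of the 3. The difference was small, at -0.35 ± 0.20 on the log2 scale (adjusted p = 0.223 in limma) against healthy and -0.36 ± 0.20 (adjusted p = 0.438) against border zone myocardium. When libraries were scaled to the same median or by quantiles, CD47 passed as lower in ischemic than in healthy myocardium (adjusted p of 0.0489 and 0.0485). A second listed position of the same accession is only 160 bp long (160558810 to 160558970). It went the other way, at 11.4, 9.12 and 34.4 RPKM in healthy and 49.8, 38.3 and 106 RPKM in ischemic libraries, from 5 to 36 reads each (log2 fold change 1.93, adjusted p = 0.0732).

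The other broadly expressed antigens differed little at the positions that stood for them, or were weak. CD58, the ligand of CD2 on many cells, had means of 0.965, 1.16 and 1.10 RPKM, with an ischemic log2 fold change of 0.14 (95% interval -0.42 to 0.69) that turned to -0.08 when libraries were scaled to the same median. Its second listed position had log2 fold changes of -0.35 against healthy and -0.84 against border zone myocardium (adjusted p = 0.343 and 0.155 in limma). At that position all ischemic libraries lay below all border zone libraries, a pattern that held for 11.5% of all positions tested. CD34, a sialomucin of endothelium and progenitor cells, lies 93.9 kb from CD46 and had means of 1.07, 0.830 and 1.29 RPKM and a log2 fold change of 0.28 (95% interval -0.43 to 0.99). The 4 endothelial marker genes in the table summed to 8.45 to 10.2 RPKM in healthy, 8.01 to 10.0 RPKM in border zone and 9.58 to 12.8 RPKM in ischemic libraries. CD274, the checkpoint ligand PD-L1, held 4, 31 and 20 reads. All border zone libraries of CD274, at 0.306, 0.133 and 0.178 RPKM, exceeded the highest healthy value of 0.0681 RPKM, while ischemic replicate 3 had no read, and neither comparison passed without the filter (adjusted p = 0.431 and 0.313).

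**Figure D4:**
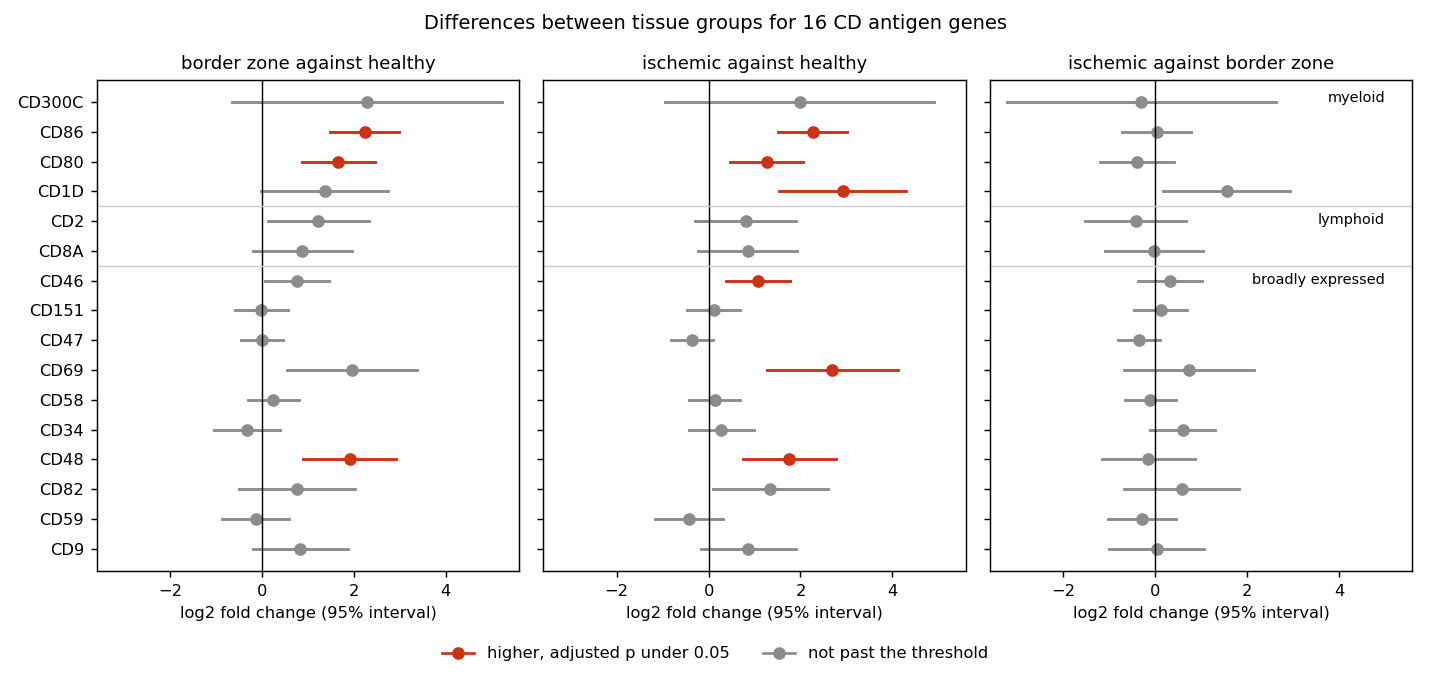
Log2 fold changes of the 16 CD antigen genes between tissue groups (points) with 95% intervals (lines), from limma on log2(RPKM + 0.1), with 3 libraries per group. Red marks adjusted p under 0.05, which 3 genes reached in border zone against healthy, 6 in ischemic against healthy and 0 in ischemic against border zone myocardium.

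The comparison of ischemic with border zone myocardium asks what set the infarct apart from the tissue at its rim. None of the 16 genes passed in limma, in either direction, against 0.168% of all positions that were higher and 0.965% that were lower. With limma-voom on the reads behind the RPKM values the count was also 0. All ischemic libraries lay above all border zone libraries for 1 gene, CD1D, and below them for 1, CD47, against 8.56% and 11.5% of all positions, and without the filter 0 of 34 genes passed, against 0% higher and 0.0778% lower. At unadjusted p under 0.05 there was 1 gene of the 16, CD1D, which differed by a log2 fold change of 1.55 ± 0.60 (95% interval 0.17 to 2.94, adjusted p = 0.273). Over all positions tested, 373 of 2384 had an unadjusted p under 0.05 in limma, in either direction. The median log2 fold change was 0.00 over the 16 genes and -0.04 over all positions. CD86 differed by 0.04 (95% interval -0.71 to 0.79) and CD48 by -0.15 (-1.16 to 0.86), intervals wide enough that equal levels are not shown. The same holds for CD69, higher in the ischemic sample of 3 of 3 pigs (0.74, interval -0.69 to 2.16), and for CD80, lower in 3 of 3 (-0.40, interval -1.19 to 0.40). By group means, 7 of the 16 genes rose from healthy over border zone to ischemic myocardium, 6 were highest in the border zone, 2 were lowest there and 1 fell throughout, against 39.1%, 24.7%, 13.4% and 22.3% of all positions. CD86, CD1D and CD300C of the myeloid genes belonged to the first kind, and both lymphoid genes, CD2 and CD8A, to the second. The place of CD8A rested on border zone replicate 3, without which it differed by 0.50 between ischemic and border zone myocardium on the log2 scale. For CD300C the difference of log2 values was -0.30, opposite to the order of its means. Ischemic replicate 1 was the highest of its group for 10 of the 16 genes and replicate 2 the lowest for 9, against 48.0% and 43.4% of all positions.

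Genes with other names that work with CD antigens were followed as lists. They are to be read against the 18.5% of all positions tested that were higher and 9.1% lower in ischemic myocardium. In the border zone these shares were 5.79% and 0.21%. The antigen presentation list was built around CD74, and another list around CD44 and CD47. CD44 and CD74 were not among the genes followed here, so no level is given for them. Of leukocyte integrins, Fc receptors and their signalling proteins, 4 of 7 tested rose in ischemic and 2 in border zone myocardium. SYK, a kinase downstream of Fc receptors and integrins, was at 0.296, 0.0787 and 0 RPKM in healthy and 2.65, 0.709 and 2.75 RPKM in ischemic libraries (log2 fold change 3.27, adjusted p = 0.00933 in limma). VAV1, an exchange factor of leukocytes, changed by 2.34 (adjusted p = 0.0137). Of genes for antigen presentation, 3 of 10 rose in ischemic and 2 in border zone myocardium, among them TAP2, a peptide transporter (2.08, adjusted p = 0.00715), and SLA-DQB1, a class II chain (1.05, adjusted p = 0.0167). A list of other costimulatory and checkpoint genes, which includes CTLA4 and ICOS, had 7 genes in the table and 0 with a mean of 0.5 RPKM.

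Of the complement genes, 1 of 2 tested rose in both comparisons, C5AR1, the receptor of the anaphylatoxin C5a, with log2 fold changes of 3.49 (adjusted p = 0.000895 in limma) in ischemic and 3.18 (adjusted p = 0.00277) in border zone myocardium. Of the ligands of CD44 and CD47 with their enzymes, 4 of 6 rose in ischemic and 2 in border zone myocardium. SPP1 (osteopontin) and VCAN (versican), which bind CD44, had the lowest p-values, with 5.10 and 2.89 (adjusted p = 0.000225 and 0.000506). SIRPA, the receptor of CD47, was at 0 in all libraries. Whether its listed position can take reads was not tested, so this does not show that SIRPA was silent. Of the other tetraspanins and their integrin partners, 1 of 4 rose and 2 fell in ischemic myocardium, and 0 changed in the border zone. TSPAN12, a tetraspanin of the norrin receptor, was at 11.6, 7.72 and 6.70 RPKM in healthy and 1.11, 1.32 and 0.923 RPKM in ischemic libraries (log2 fold change -2.82, adjusted p = 0.00141), and ITGB1, the common beta 1 integrin chain, changed by 0.84 (adjusted p = 0.0146). These lists were filtered in the same way as the antigens, so their counts carry the same limit.

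**Figure D5:**
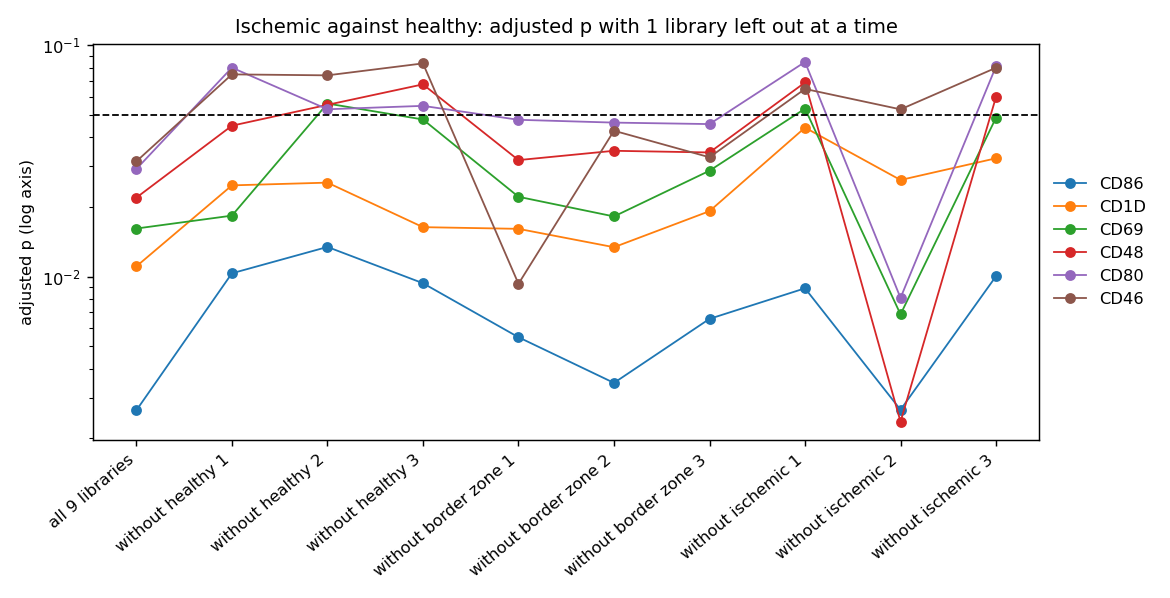
Adjusted p (log axis) of the 6 CD antigen genes that were higher in ischemic than in healthy myocardium, with all 9 libraries and with each library left out in turn, and the threshold of 0.05 as a dashed line. CD86 and CD1D stayed below the line in all 9 cases, CD69 in 7, CD48 in 5, CD80 in 4 and CD46 in 3. These counts include the cases without a border zone library, in which all 6 genes stayed below the line. Border zone libraries enter this comparison only through the shared estimate of the spread.

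The 6 calls in ischemic myocardium differed in how far they rested on single libraries. CD86 passed with each of the 9 libraries left out, as did CD1D, whereas CD69 passed in 7 of 9 cases, CD48 in 5, CD80 in 4 and CD46 in 3. The log2 fold change of CD86 then ranged from 2.01 to 2.49 and that of CD1D from 2.50 to 3.31. These runs kept the positions chosen by the mean over all 9 libraries. CD1D, with a mean of 0.584 RPKM, was therefore tested in each, and whether it would pass the filter without a library was not tested. Border zone libraries enter this comparison only through the shared estimate of the spread, and all 6 genes passed without any one of them. The count of higher genes was 2 without healthy replicate 2 or without ischemic replicate 1 (CD86 and CD1D both times), 3 without healthy replicate 3, and up to 7 without ischemic replicate 2, where CD300C and CD82 passed and CD46 did not. In the border zone the count was 0 without border zone replicate 1 or 3, 1 (CD86) without border zone replicate 2 or any healthy replicate, and 2 (CD80 and CD86) without ischemic replicate 1. Other settings ended some calls too. In ischemic myocardium CD46 and CD80 were lost when libraries were scaled to the same median or by quantiles, CD48 and CD80 when the groups were fitted alone, CD46 with limma-voom, and CD1D (adjusted p = 0.083), CD46, CD48 and CD80 with thinned reads. CD80 and CD48 were lost in the border zone with a pseudocount of 1 RPKM, without the filter, with either scaling and with thinned reads, and CD48 also with a pseudocount of 0.5 RPKM.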

How the data were processed

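GRO-seq libraries of healthy, border zone and ischemic myocardium (3 pigs, 1 library of each per pig) were compared. The authors aligned reads with Bowtie to susScr3, per the submitters' processing notes, with no version. The counting program, strand setting and handling of duplicates were not given in the sources used here. Their table holds 4882 positions, whose deposited RPKM values are reads per kilobase of annotated span scaled to the library total. Symbols came from a Sscrofa11.1 RefSeq table, which matched 4793 positions, and coordinates are those of the authors' table. Each RPKM gave a whole number of reads within 0.01 for 100% of nonzero values. Read counts of 1 to 30 were multiples of 3 in 32.8% to 53.2% of cases by library, so reads are not known to be independent molecules, and intervals cover counting error only. Overlapping and antisense genes cannot be told apart where strand was not used. CD96 alone overlapped a second listed position, its own on the other strand.

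Values were tested as log2(RPKM + 0.1) in limma 3.58.1 (R 4.3.3), trend and robust eBayes, all 9 libraries in 1 fit, 2-sided, for the 2384 positions (2075 genes) whose mean over the libraries was 0.5 RPKM or more. The script was tested on simulated data. The alternatives were pseudocounts of 0.5 and 1, no filter or 1 RPKM, the pig as a block, other scalings, limma-voom, the groups compared alone, the position with the highest mean, each library left out, and, chosen after seeing the data, reads thinned to the smallest library. Reads recovered from RPKM entered limma-voom and the thinning. The labels give the same animal for equal replicate numbers. Deviations from group means correlated by -0.04 to 0.18 between libraries of 1 pig and by -0.16 to 0.08 between pigs. Members with a mean of 0.5 RPKM were named with values, weaker ones by class with reads, and the 2 genes of lowest p among those called from each partner list. Members, classes and lists were chosen with earlier results of these data known. The planned promoter search was not run, and sequences are not analysed here. The values of 1 weak gene are not reported here. Python 3.11.15, pandas 2.3.3, scipy 1.17.1 and matplotlib 3.10.9 were used.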

Additional observations from a re-analysis of the deposited data

How the results depend on the processing

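The median position tested held 16 to 46 reads in ischemic libraries, which limits the precision there. In ischemic against healthy myocardium the count of higher CD antigen genes was 2 to 7 with 1 library left out, 3 with a filter at 1 RPKM (fewer genes tested), 3 with thinned reads (CD69, CD86 and CD8A, which was added), 7 with limma-voom (CD82 and CD9 added, CD46 lost) and 6 under the replicate block. With libraries scaled to the same median, and with quantile normalization, 4 were higher (CD46 and CD80 lost) and 1 gene, CD47, was lower. In border zone against healthy myocardium it was 0 to 3 with 1 library left out, 4 under the replicate block (CD69 added), and 1 with a pseudocount of 1 RPKM, without a filter, with a filter at 1 RPKM, with either scaling and with thinned reads. The block changed no other call. Scaling to the same median moved the median over all positions tested from 0.21 to 0.00 in ischemic and from 0.22 to -0.04 in border zone myocardium. The calls over all positions, 442 higher and 217 lower in ischemic myocardium, became 337 and 295 with that scaling and 249 and 251 with quantile normalization; in the border zone 138 and 5 became 73 and 11, and 74 and 11. In ischemic against border zone myocardium the counts were 0 under all 20 alternatives. The cause of these shifts was not tested.

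Of the single-gene values, 47 changed sign, and none of these was past the threshold in either setting. With 1 library left out, log2 fold changes ranged from -0.091 to 0.21 for CD151 and -0.086 to 0.28 for CD58 in ischemic against healthy, and from -0.17 to 0.10 for CD151, -0.063 to 0.051 for CD47 and -0.28 to 0.056 for CD59 in border zone against healthy myocardium. In ischemic against border zone myocardium they ranged from -0.075 to 0.28 for CD151, -1.21 to 1.31 for CD300C, -0.50 to 0.36 for CD48, -0.33 to 0.033 for CD58, -0.22 to 0.25 for CD86, -0.43 to 0.50 for CD8A and -0.33 to 0.46 for CD9. With median scaling CD151 (-0.11) and CD58 (-0.077) turned in ischemic against healthy, CD47 (-0.25) and CD58 (-0.016) in border zone against healthy, and CD8A (0.019) in ischemic against border zone myocardium. With quantile normalization the same held for CD151 (-0.15) and CD58 (-0.054), for CD47 (-0.23), CD58 (-0.065) and CD8A (-0.016), and for CD300C (0.038), CD58 (0.011) and CD8A (0.66). Thinned reads turned CD151 (0.32) and CD47 (-0.011) in border zone against healthy and CD151 (-0.22), CD300C (1.07) and CD86 (-0.0098) in ischemic against border zone myocardium. In the last comparison CD300C also turned with pseudocounts of 0.5 (0.14) and 1 RPKM (0.20) and with limma-voom (0.23), and CD8A with limma-voom (0.41). The 160 bp position of CD47 gave 1.93 against healthy and 0.75 against border zone myocardium.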
